A study of Camelus dromedarius with 4 samples.

Results

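Immediate early genes are transcribed within minutes of a stimulus from factors that the cell already holds, so their messenger RNAs (mRNAs) do not wait for new protein. In neurons the stimulus is usually calcium entry and the signalling of kinases that act on CREB, on SRF with its ELK partners and on MEF2. In the supraoptic nucleus (SON), the hypothalamic nucleus whose magnocellular neurons make vasopressin and oxytocin, FOS and its relatives have long been used as markers of neurons that have responded to an osmotic stimulus. The members form 4 groups: the AP-1 proteins (FOS, FOSB, FOSL2, JUN, JUNB and their relative ATF3), which bind DNA as dimers; the zinc-finger factor EGR1 and the nuclear receptor NR4A1; the neuron-restricted factor NPAS4; and ARC, a protein of the synapse that promotes the removal of glutamate receptors.

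These 10 genes were chosen by symbol, and all 10 were found among the 16049 gene symbols with season means. Each season gave 2 libraries of total RNA from the SON of adult male dromedary camels of the Tergui breed, matched for age. The study states that the animals of both seasons were hydrated before slaughter. The winter animals were slaughtered at El Oued and the summer animals at Ouargla, so that season, place and day of slaughter cannot be told apart, and no other treatment distinguishes the groups. The SON was dissected after slaughter and snap frozen. The labels give the libraries as separate samples of a season, without naming the animals, and p-values measure the spread between these samples. Since the tissue was sequenced in bulk, fewer cells of a type and less RNA per cell cannot be told apart.

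Reads on gene models came to between 4379162 and 6902037 per library. The deposited expression table gives only the mean of the 2 libraries of a season, but the means are sums of whole reads divided by size factors, and for 9871 symbols, 9 members among them, they could be solved to the reads of each library in a single way. The recovered libraries are named by the size of their factor, winter library A (1.33) and B (0.946) and summer library A (0.922) and B (0.877), because they carry no replicate number. Normalized reads are the recovered reads divided by that factor. Summer library A stood apart from the others: it held a read of 85.0% of these symbols, where the others held 96.4 to 97.4%. The tissue label was checked against the magnocellular marker OXT, which had means of 621 normalized reads in winter and 592 in summer. AVP, the other magnocellular marker listed, was not among the symbols with season means. The paper does report an AVP transcript, apparently higher in summer, so AVP was measured but could not be checked here by symbol. OXT has no single solution, so the check covers seasons and not single libraries.

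FOS and FOSB, whose products pair with JUN proteins, were represented by few reads. FOS stood at 14.3 normalized reads in winter library A and 8.46 in B, and at 2.17 in summer library A and 14.8 in B, from 19, 8, 2 and 13 reads. FOSB had 14.3 and 1.06 in winter and 6.51 and 20.5 in summer, from 19, 1, 6 and 18 reads. For both genes the highest value was in summer library B and the next in winter library A, so the seasons overlapped. FOSL2, a Fos-related antigen whose product also pairs with JUN proteins, had 54.3 and 21.2 normalized reads in winter and 42.3 and 41.0 in summer. The summer libraries lay between the winter ones.

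JUNB, which competes with JUN for dimer partners, had 131 and 41.2 normalized reads in the winter pair and 60.7 and 117 in the summer pair. Its season means of 85.9 in winter and 89.1 in summer nearly coincided, while its libraries differed 3.17-fold in winter and 1.93-fold in summer. JUN itself had 221 and 164 normalized reads in the summer libraries A and B, but its winter mean of 253 allows 2 solutions, either 328 and 179 or 468 and 39.1 in the libraries A and B. Winter library A was the higher in both solutions, by 1.84-fold or 12-fold. ATF3, which is induced by cell stress and injury as well as by activity, had 77.7 and 10.6 normalized reads in winter and 56.4 and 190 in summer. The summer mean of ATF3 was 2.79-fold the winter mean (123 against 44.1), and winter library A nevertheless exceeded summer library A.

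EGR1, a factor of synaptic plasticity, stood at 64.1 normalized reads in winter library A, 28.6 in winter library B, 18.4 in summer library A and 11.4 in summer library B, from 85, 27, 17 and 10 reads. The lower winter value exceeded the higher summer value, and the winter mean was 3.11-fold the summer mean. Of its exact 95% Poisson intervals, that of winter library A began at 51.2, above both summer intervals. That of winter library B (18.8 to 41.5) overlapped those of summer library A (10.7 to 29.5) and summer library B (5.47 to 21.0). NR4A1, an orphan nuclear receptor, had 18.1 and 6.35 in winter and 7.59 and 62.7 in summer. Its summer mean was 2.87-fold its winter mean, and that difference was carried by summer library B, since summer library A lay between the winter libraries. NPAS4, which is induced by calcium entry, had 8.30 and 7.40 in winter and 0 and 3.42 in summer, from 11, 7, 0 and 3 reads. NPAS4 thus also had both winter libraries above both summer libraries, but most of their counting intervals overlapped. The exact 95% Poisson intervals reached 4.0 normalized reads in summer library A and 9.99 in summer library B. They began at 4.14 in winter library A and 2.98 in winter library B. Winter library A lay just above summer library A, and every other pair across seasons overlapped. ARC had 23.4 and 2.12 in winter and 13.0 and 28.5 in summer, which is the order of libraries seen for FOSB and ATF3.

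**Figure D1:**
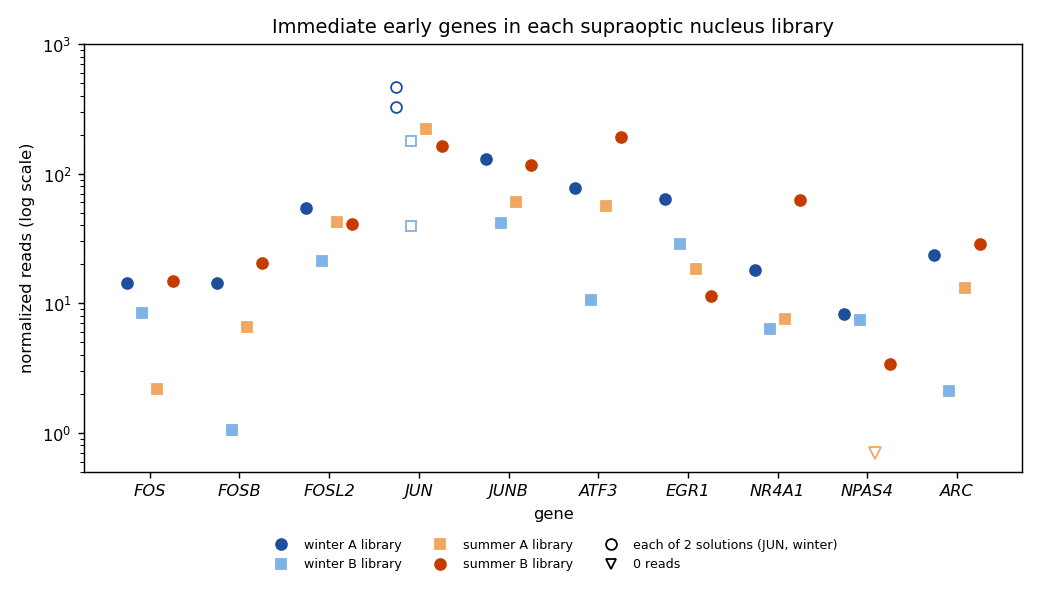
Normalized reads of the 10 immediate early genes in each library, on a log axis. Filled symbols are single recovered values, open symbols for JUN are the 2 solutions of its winter mean, and the triangle marks 0 reads of NPAS4 in summer library A. EGR1 and NPAS4 have both winter libraries above both summer libraries, while FOS, FOSB, ATF3, NR4A1 and ARC are highest in summer library B.

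The comparison that the study was built on, winter against summer, was made with edgeR's quasi-likelihood test over 7630 genes that had a single solution and a mean of at least 10 normalized reads in a season. It took in 8 members. JUN was left out for its 2 solutions, and NPAS4 for its season means of 7.85 and 1.71. EGR1 was higher in winter, with a log2 fold change of 1.65 ± 0.68 (SE, n = 2 libraries a season). Its unadjusted edgeR p was 0.0426, where an exact permutation test of 2 against 2 libraries cannot give a p under 0.333. It was the only tested member past the rule of a 2-fold difference with an unadjusted p under 0.05, which 1.68% of all genes tested passed, 0.852% with the higher level in winter. Its adjusted p was 0.982. No gene among the 7630 (0%) had an adjusted p under 0.05 in edgeR, 152 had an unadjusted p under 0.05, and the exact test of edgeR and DESeq2 each gave 1 gene with an adjusted p under 0.05, which was no member.

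The other tested members did not pass. NR4A1 had a log2 fold change of winter over summer of -1.43 ± 1.00 (SE, edgeR adjusted p = 0.982) and ATF3 of -1.42 ± 0.82 (SE, adjusted p = 0.982), each higher in summer by the means, with an unadjusted p above 0.05. FOSB (-0.65 ± 1.07), ARC (-0.57 ± 0.96), FOS (0.48 ± 0.99), FOSL2 (-0.10 ± 0.57) and JUNB (-0.02 ± 0.58) lay within about their standard error of 0. With JUN entered in each solution, its log2 fold change was 0.40 ± 0.40 or 0.41 ± 0.87, with an edgeR adjusted p of 0.982 or 0.983. Taken by the means alone, of the 9 members with a mean of at least 10, EGR1 was more than 2-fold higher in winter (background 2.72% of 13808 genes), and NR4A1 and ATF3 were more than 2-fold higher in summer (4.53%). Of all genes, 7.26% were past 2-fold in either direction.

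EGR1 and NPAS4 were the 2 of 9 solved members whose seasons did not overlap, and in the other 7 at least 1 library of a season fell among those of the other. Among all genes tested, 30.6% did not overlap, 13.3% with winter higher. The test of EGR1 also depended on single libraries. Without winter library A its log2 fold change was 0.93, and without winter library B it was 2.09, in both fits with an unadjusted p above 0.05 and an edgeR adjusted p of 0.999, a lone library being assumed to vary like the others. Without summer library A, the library that stood apart, it was 2.03 (adjusted p = 0.126). In the same fit NR4A1 was at -2.30 (adjusted p = 0.043) and ATF3 at -2.07 (adjusted p = 0.0195), both higher in summer, so that 3 members then passed the 2-fold rule, but that fit rests on summer library B alone, and 1099 of all genes also passed the rule in it, against 128 with all libraries. Without summer library B, NR4A1 was at 0.73 and ATF3 at -0.32 on the log2 scale. ATF3 was at -3.52 without winter library A, where it was the 1 member past the rule (edgeR adjusted p = 0.999), and at -0.66 without winter library B. The season difference of NR4A1 thus turned sign without summer library B, and the size of that of ATF3 depended on libraries of both seasons.

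**Figure D2:**
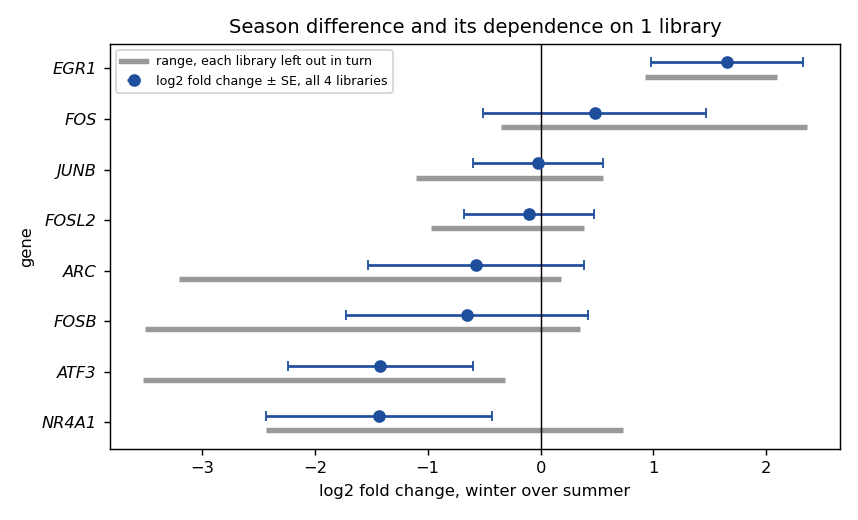
Log2 fold change of winter over summer for the 8 tested members. Points and bars are the edgeR estimate and its standard error from all 4 libraries, and grey bars run from the lowest to the highest estimate when each library was left out in turn. The grey bars of EGR1 (0.93 to 2.09) and ATF3 (-3.52 to -0.32) lie on 1 side of 0 and those of the other 6 cross it.

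The larger differences were those between the libraries of a season. In winter, library A was above library B in 9 of 9 solved members, where 53.5% of all genes tested had that order, and in both solutions of JUN. The difference exceeded 2-fold for FOSB, FOSL2, JUNB, EGR1, NR4A1, ARC and ATF3, 7 of 9 (10.9% of all genes tested), and library B was more than 2-fold above A in 0 members (5.86%). It was 13.6-fold for FOSB, 11.1-fold for ARC and 7.35-fold for ATF3, and 2.25 to 3.17-fold for EGR1, FOSL2, NR4A1 and JUNB. The difference was beyond counting error for 6 members, all of these but NR4A1, in that the exact 95% Poisson interval of library A lay above that of library B (12.7%). The intervals cover counting error only. For ATF3 they ran from 63.4 to 94.3 normalized reads in library A and from 5.07 to 19.4 in library B.

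In summer the order was less uniform. Library B was above library A in 7 of 9 members (61.9% of all genes tested), the exceptions being FOSL2, with nearly equal values, and EGR1. JUN was also higher in summer library A, by 1.35-fold. The difference exceeded 2-fold for NR4A1 (8.26-fold), FOS (6.83-fold), ATF3 (3.38-fold), FOSB (3.15-fold) and ARC (2.19-fold), against 27.7% of all genes tested, and 0 members had library A more than 2-fold above B (6.67%). NPAS4, with 0 reads in library A, has no ratio. The counting intervals of FOS, JUNB, NR4A1 and ATF3 lay apart, with B above A (26.2%). FOSB, NR4A1, ARC and ATF3 differed more than 2-fold in both seasons, in the direction given (4.18%). This pairing of winter library A with summer library B follows the direction of the members themselves, so the shares of all genes in that direction give scale only.

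**Figure D3:**
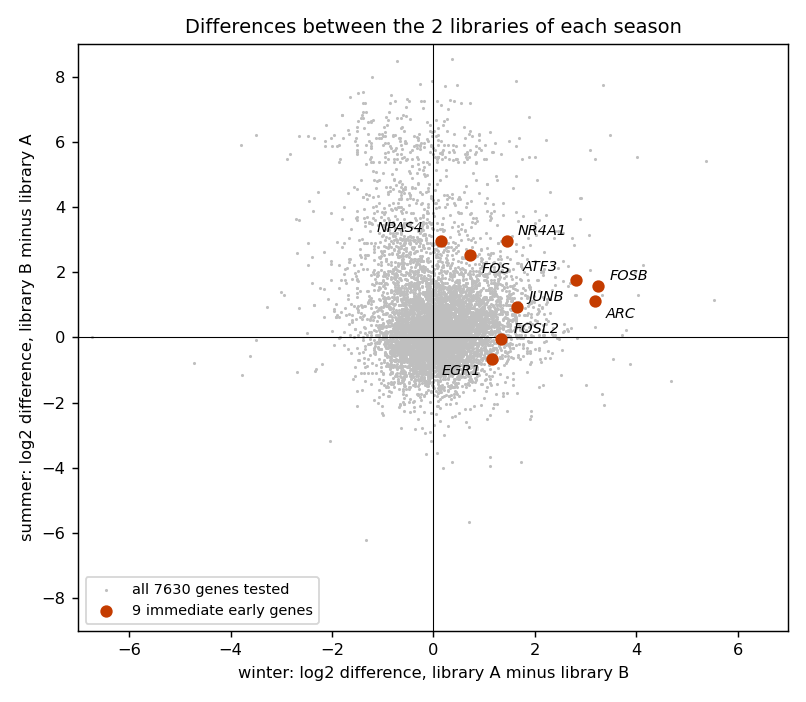
Difference between the libraries of a season on the log2 scale (normalized reads plus 0.5), winter library A minus B on the horizontal axis and summer library B minus A on the vertical axis. Grey points are the 7630 genes tested and red points the 9 immediate early genes with a single solution. All 9 lie to the right of 0, and EGR1 and FOSL2 are the members below 0 on the vertical axis.

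The median of the absolute difference between libraries over the 9 members was 1.44 on the log2 scale in winter and 1.58 in summer, against 0.44 and 0.65 over all genes tested. Over the 7 members that had both means under 100 and were tested it was 1.44 and 1.10, against 0.48 and 0.73 over genes with such means. For 6 of the 8 tested members, all but EGR1 and FOSL2, the edgeR season difference was smaller than the difference between libraries in both seasons, which held for 42.1% of all genes tested. NR4A1 met this only narrowly in winter, at -1.431 against 1.443. The log2 ratio of its season means, -1.523, was larger in size than that winter difference. The edgeR season difference was smaller than the difference within at least 1 season for 7 of 8, all but EGR1 (80.5%). The 9 members summed to 405 normalized reads in winter library A, 127 in winter library B, 207 in summer library A and 490 in summer library B. Libraries A of winter and B of summer were thus the higher in these sums, in which JUNB (131 and 117) and ATF3 (77.7 and 190) weighed most. All 9871 solved genes summed to 436581, 409481, 407993 and 500250 in the 4 libraries, listed likewise. Winter library A above B together with summer library B above A was found in 7 of 9 members, against 34.1% of all genes tested. The highest value fell in winter library A for FOSL2, JUNB, EGR1 and NPAS4, and in summer library B for FOS, FOSB, NR4A1, ARC and ATF3. The share of all genes with their highest value in these 2 libraries was not computed.

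Cell type markers also differed between the summer libraries. Of 9 neuronal markers with season means, 7 had a single summer solution, and all 7 were higher in library B, by 1.23 to 3.15-fold, with a median of 2.52-fold. SNAP25, a protein of vesicle fusion, had 79.2 normalized reads in summer library A and 199 in B, and RBFOX3, the nuclear antigen NeuN, had 15.2 and 33.1. The neuronal markers summed to 874 in library A and 1826 in library B. The 4 solved astrocyte markers were also higher in B, by 1.05 to 3.10-fold, as were 2 ependymal markers, at 2.19 and 2.59-fold. The 3 solved oligodendrocyte markers were higher in library A, by 1.31 to 1.48-fold, and the 3 solved microglial markers summed to 281 in A and 184 in B. The endothelial (846 and 753), mural (787 and 651) and blood (616 and 437) sums were higher in A by 1.12, 1.21 and 1.41-fold. Single markers went the other way, with PDGFRB (1.39-fold), CLDN5 (1.46-fold), CDH5 (1.58-fold) and the microglial TMEM119 (1.09-fold) among those higher in B. The order of the neuronal markers was that of 7 of the members, and not that of JUN, EGR1 and FOSL2.

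In winter few markers could be solved. RBFOX3 had 53.6 normalized reads in library A and 37.0 in library B, a ratio of 1.45, and TUBB3 and SYN1 were higher in library A in each of their 3 solutions. For the other neuronal markers the order differed between solutions. Markers of other cell types were also higher in A in every solution, namely the astrocyte SLC1A2, the oligodendrocyte MOBP and the endothelial VWF. The endothelial FLT1 and the blood marker ALAS2 were higher in B in every solution. The 3 astrocyte markers that could be solved summed to 334 and 157, and ALDH1L1 among them had 212 and 76.1, 70.5 and 168 in the 4 libraries (winter A and B, then summer A and B). Endothelial markers summed to 186 and 163 in the winter libraries A and B, microglial to 289 and 298, and mural to 246 and 251. The sums of blood markers (185 and 282) and ependymal markers (111 and 150) were lower in winter library A, against the order of the members. Among the blood markers HBB (37.7 and 113) and PTPRC (92.8 and 117) had that order. HBA (13.6 and 12.7), CD3E (36.2 and 34.9) and S100A8 (4.53 and 4.23) were slightly higher in A. The ependymal marker FOXJ1 (3.77 and 0) was also higher in A, while CCDC39 (42.3 and 80.4) and DNAH9 (64.9 and 69.8) were lower. The part of cell composition in the differences of the immediate early genes was not tested.

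**Figure D4:**
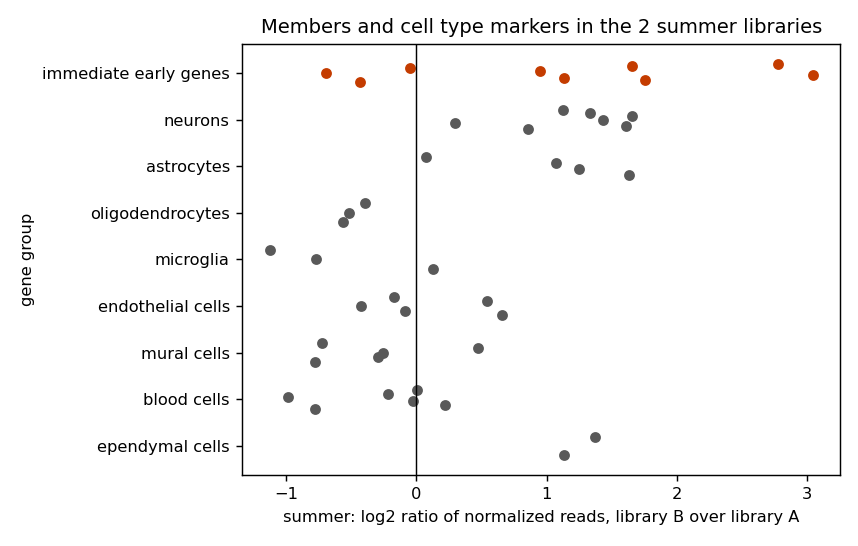
Log2 ratio of normalized reads in summer library B over summer library A, without a pseudocount, for the immediate early genes with reads in both libraries (red) and for markers of 8 cell types with a single summer solution (grey). Neuronal markers lie between 1.23 and 3.15-fold, all on the side of library B, and oligodendrocyte markers lie on the side of library A.

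The members did not share a single 4-library profile. Their distances from their own mean profile ran from 0.379 for JUNB and 1.11 for FOSL2 to 1.88 for ATF3, 2.27 for EGR1 and 3.10 for NPAS4, and the last 3 lay further from it than the median gene tested (1.73). The distance grows with the size of a gene's differences as well as with another order of libraries. ATF3 had its higher values in winter library A and summer library B, as the mean profile did, whereas EGR1 and NPAS4 were higher in both winter libraries. The mean profile is thus an average over genes unlike in order or in size of their differences. The 5 genes outside the lists closest to it, by Euclidean distance over the 4 libraries (log2 of normalized reads plus 0.5, centred on each gene), were GPR85, an orphan receptor, ABCG4, a sterol transporter, RHBDL1, a rhomboid-like protein, STMN3, a stathmin that binds tubulin, and HS6ST1, a heparan sulfate sulfotransferase. Their distances were 0.141 to 0.236. STMN3 stood at 324 and 97.3 normalized reads for winter A and B, with 104 and 352 for summer A and B. GPR85 had 40.7 and 11.6, and 15.2 and 44.5. Of the members themselves, FOSB and ARC ranked 2 and 3 of all genes tested in closeness to ATF3, with distances of 0.587 and 0.725, a comparison chosen after the values were seen.

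EGR1 had another profile, highest in winter library A, next in winter library B and lower in both summer libraries. Measured in the same way, and again chosen after the values were seen, the 2 genes closest to EGR1 of all tested were ZFP36 (0.292), which binds and destabilises mRNAs, and IER2 (0.297), an early response transcription factor. ZFP36 stood at 76.2 and 32.8 normalized reads for winter A and B, with 27.1 and 15.96 for summer A and B. IER2 had 24.9 and 12.7, and 7.59 and 5.70. The next 3 genes, SMIM20, HEXIM2 and DAO, were on none of the lists. KLF2, a Krüppel-like factor that serum and flow induce, was at rank 8 (76.2 and 41.2, and 28.2 and 23.9). CYR61, a matricellular protein, was only at rank 162 (18.1 and 16.9, and 7.59 and 2.28). All 4 of these list genes had non-overlapping seasons with winter higher, as 13.3% of all genes tested did. They were picked by closeness to EGR1 or by a large season ratio, which favours that order, so it is no separate result. The same lists held as many tested genes with summer wholly higher (17.2% of all genes) as with winter wholly higher. Among the other immediate early transcription factors these were 2 in each direction, with ID1 and CREM higher in summer, and among the effectors and feedback regulators 3 in each direction, with NFKBIA, RGS2 and CDKN1A higher in summer. The log2 fold changes of winter over summer were 1.36 ± 0.62 for ZFP36, 1.52 ± 0.85 for IER2, 1.19 ± 0.53 for KLF2 and 1.79 ± 0.90 for CYR61, each with an unadjusted p above 0.05 and an edgeR adjusted p of 0.982, so none passed.

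Of the 25 other immediate early transcription factors, 23 had means and 15 were tested, and 0 passed the 2-fold rule. Their median log2 ratio of the season means was -0.17, against -0.04 over all genes. KLF10 (-0.91 ± 0.61), a factor induced by TGF-beta, and ID1 (-1.08 ± 0.67), an inhibitor of helix-loop-helix factors, were among the tested genes with the largest ratios beside IER2 and KLF2, and did not pass. The closest relatives of EGR1 had few reads, EGR2 with means of 1.06 in winter and 3.93 in summer and EGR3 with 1.13 and 2.82. NR4A3, a relative of NR4A1 picked out after its values were seen, had 29.4 and 20.1 normalized reads in winter and 4.34 and 67.2 in summer. Like NR4A1 it was highest in summer library B, while its difference between the winter libraries was 1.46-fold. Winter library A was above B in 13 of the 15 tested genes of this list (53.5% of all genes tested). It was more than 2-fold above B in 2 of them (10.9%), and summer library B was above A in 6 (61.9%).

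Of the 34 immediate early effectors and feedback regulators, all had means and 23 were tested, and 0 passed. After CYR61 and ZFP36, the largest ratios of the season means among its tested genes were those of PTGS2, the inducible cyclooxygenase (-0.99 ± 1.06), and IER3, an early response gene linked to cell survival (-0.93 ± 0.68). PTGS2 had 5.28 and 21.2 normalized reads in winter and 5.42 and 44.5 in summer, so that in winter it went against the members. In 3 tested genes of the list both seasons differed more than 2-fold in the direction of the members (4.18% of all genes tested). They were BTG2, an antiproliferative gene, GEM, a small GTPase that acts on calcium channels, and DUSP4, a phosphatase of MAP kinases. These genes were picked out after their values were seen. BTG2 had 73.2 and 16.9, and 7.59 and 96.9, and GEM had 94.3 and 30.7, and 59.6 and 169. The median difference of this list between winter libraries A and B was 0.60 on the log2 scale, and that between summer libraries B and A was 0.45, against 0.06 and 0.28 over all genes tested and 1.44 and 1.58 over the members.

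Of the 22 late response genes, which follow the immediate early genes, 20 had means, 11 were tested and 1 passed the rule. Their median log2 ratio of the season means was 0.51, towards winter, against -0.04 over all genes. NEFM, a neurofilament gene, had means of 531 in winter and 194 in summer, more than 2-fold apart, but no single solution and so no test. RASGRP1, an exchange factor for Ras, had 38.5 and 47.6 normalized reads in winter and 126 and 74.1 in summer, with a log2 fold change of -1.22 ± 0.42 (SE, edgeR adjusted p = 0.982). PCSK1, the prohormone convertase, had 41.5 and 24.3 in winter and 82.4 and 55.9 in summer (-1.05 ± 0.48, not past the rule). For both genes the summer libraries lay above the winter ones, with A above B in summer, unlike most members. PCDH8 (1.04 ± 0.99), a protocadherin, and NPTX1 (0.97 ± 0.50), a neuronal pentraxin, had overlapping seasons. BDNF, a neurotrophin gene that NPAS4 regulates, had means of 6.11 in winter and 5.02 in summer, and was not tested.

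Of 48 upstream kinases and transcription factors, 41 had means, all of at least 10 normalized reads, and 12 could be tested, the others being too highly expressed for a single solution. CRTC3, a coactivator of CREB, passed the rule with the higher level in summer, with 37.7 and 30.7 normalized reads in winter and 60.7 and 90.0 in summer (-1.13 ± 0.44, edgeR adjusted p = 0.982). EP300, a histone acetyltransferase, had 112 and 141 in winter and 64.0 and 74.1 in summer (0.87 ± 0.35, edgeR adjusted p = 0.982), a difference under 2-fold. CRTC2, another CREB coactivator, was at 0.67 ± 0.44 and MAPK9, a JNK kinase, at -0.57 ± 0.64. The median difference between winter libraries was 0.09 and that between summer libraries 0.25, close to the values of all genes, and CREB1 had season means of 300 in winter and 354 in summer.

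Among the 20 other AP-1 and ATF proteins, 17 had means, 7 were tested and 0 passed. BATF, a dimer partner of JUN proteins in lymphocytes, had 6.79 and 3.17 normalized reads in winter and 8.68 and 33.1 in summer (-1.96 ± 0.98, edgeR adjusted p = 0.982), and JDP2, a repressor of AP-1, was at 0.56 ± 0.57. ATF5, a factor of the stress response, was at 0.51 ± 0.45 and MAF, a bZIP factor, at -0.49 ± 0.43. JUND had season means of 117 in winter and 132 in summer. Of the 21 heat shock and stress genes, 20 had means, 6 were tested and 0 passed, with a median log2 ratio of the means of -0.20. HSPA1A, the inducible HSP70, had 34.7 and 11.6 normalized reads in winter and 43.4 and 42.2 in summer (-0.83 ± 0.63), but its near-identical copy HSPA1B may have shared its reads. DNAJB1 (0.35 ± 0.48) and BAG3 (-0.29 ± 0.63), cochaperones of HSP70, and PPP1R15A (0.26 ± 0.35), a phosphatase subunit of the stress response, lay within their standard error of 0. The median difference between winter libraries of the tested stress genes was 0.35 and that between summer libraries -0.08, so that summer library B was not the higher for this list.

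**Figure D5:**
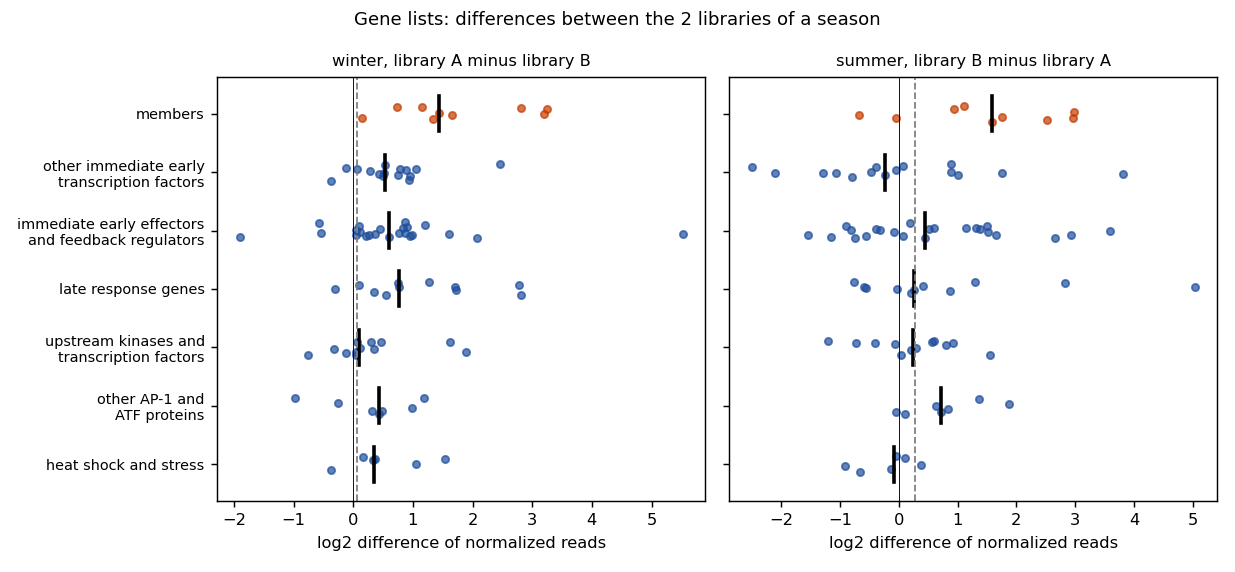
Differences between the libraries of a season on the log2 scale (normalized reads plus 0.5), winter library A minus B on the left and summer library B minus A on the right. Points are genes with a single solution (for lists other than the members, those tested), black bars are list medians and dashed lines the median of all genes tested (0.06 and 0.28). The 9 members, untested NPAS4 included, have medians of 1.44 and 1.58 (1.55 and 1.34 over the 8 tested), further from 0 than those of the other 6 lists.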

How the data were processed

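Stranded total RNA libraries, depleted of ribosomal RNA, were made from 2 winter and 2 summer samples of SON. Per the labels and the study's methods, the authors used TopHat to align reads to a dromedary genome they had assembled, HTSeq to count, and DESeq and edgeR for comparison. Versions are not given in the sources used here. The deposited counts per gene model carry identifiers that the files do not pair with symbols and were used for depth only: 4379162 to 6902037 reads a library. The deposited season means, a signal in normalized reads per symbol, have no error. Other columns hold the authors' fold changes and p-values and were not used. Of 18152 rows, 4 with repeated date-like symbols were left out.

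Each mean, given to 6 significant digits, was solved for the whole reads of its 2 libraries. All means under 20 came out whole (100%), against 0.161% (summer) and 0.278% (winter) after values were moved at random. Reads are whole to that rounding, and solving was tested on simulated data. Genes with a single solution, and 10 or more normalized reads on average in winter or summer, entered edgeR 4.0.16 (quasi-likelihood test, season as the only term, size factors as library sizes, Benjamini-Hochberg adjustment, R 4.3.3). The common biological coefficient of variation was 0.46. Within-season differences used a pseudocount of 0.5, and printed fold values none. Counting intervals are exact Poisson, 95%.

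Alternatives were the exact test of edgeR, DESeq2 1.42.0, limma-voom (limma 3.58.1), other scalings and filters, and each library left out. The further choices, JUN in each solution and spread at means under 100, were added after seeing the data. The members and lists were chosen with earlier results of these data known. Named genes are all members, list genes past the 2-fold rule, the 4 of each list with the largest ratio of means among solved genes passing that minimum, and the 5 nearest profiles. Others are said to be picked after their values were seen, or given as background. No genome, transcript lengths or sequences were used, so levels were not compared between genes.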

Additional observations from a re-analysis of the deposited data

How the results depend on the processing

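With 2 libraries a season, EGR1 was the only tested member past the 2-fold rule, and it did not pass with DESeq2 (0 members) or limma-voom (0 members). Without a library in turn, 0 to 3 members passed the rule and 0 to 2 had an adjusted p under 0.05. EGR1 was higher in winter under every alternative run, with values of 0.93 to 2.09 without a library. The ranges without a library were -3.52 to -0.32 for ATF3, -2.44 to 0.73 for NR4A1, -3.21 to 0.18 for ARC, -3.50 to 0.35 for FOSB, -0.35 to 2.36 for FOS, -0.97 to 0.38 for FOSL2 and -1.11 to 0.55 for JUNB. JUNB also turned sign with TMM (0.014), RLE (0.024) and total-read scaling (0.081). Of the 3 libraries kept, the lone library of a season is assumed to vary like the others.

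Over all genes, 128 passed the rule, against 60 with DESeq2, 83 with limma-voom, 79 with a mean of at least 10 in both seasons, and 33 to 1160 without a library. Adjusted p under 0.05 was reached by 1 gene with the exact test, 1 with DESeq2 and 0 to 231 without a library. Of the 128, 65 were higher in winter, and with total-read scaling 121 of 167 were. By the means, 2 members were more than 2-fold higher in winter with no filter, and 4 were higher in summer at 1.5-fold and 0 at 3-fold. The cause of these shifts was not tested. The median of all genes tested between summer libraries moved from 0.28 to 0.01 with TMM scaling, where 6 of the 8 tested members were still higher in library B. No paired analysis was possible because the seasons share only 1 replicate number and the recovered libraries carry none. Low reads limit NPAS4, FOS and FOSB most.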
